A study of Mus musculus with 14 samples.

Results

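Cps1, Arg1, Gls2, Glul and Slc38a4, which handle ammonia, arginine and glutamine in liver, were read from a small spotted oligonucleotide array hybridised with liver RNA of 14 mice. Each gene was found by its name or symbol in the array files and had 1 oligonucleotide. They were 5 of the 271 different mouse genes on the array, and all 5 were among the 134 genes bright enough to be tested. The mthr-/- group held 7 homozygous C57BL/6 mice, 4 females and 3 males, whose drinking water held betaine at 2% (w/v), begun 5 weeks after weaning. The wild type group held 7 C57BL/6 mice, 2 females and 5 males, for which the labels name no betaine, so a difference between the groups may belong to genotype or to betaine, which cannot be told apart. All mice were 15 to 20 weeks old and ate standard chow. In the labels the tissue is liver, the cells are called primary hepatocytes, and the abbreviation mthr is not spelled out. No check of a targeted gene was therefore made.

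In the liver lobule, blood flows from the portal tract to the central vein, and hepatocytes along this path divide nitrogen disposal between them. Periportal hepatocytes split glutamine with liver-type glutaminase, encoded by Gls2, and turn ammonia into urea. Carbamoyl phosphate synthetase, encoded by Cps1, brings ammonia into the urea cycle in mitochondria, and arginase, encoded by Arg1, ends the cycle by splitting arginine into urea and ornithine. Ammonia that passes these cells is captured by glutamine synthetase, encoded by Glul, in a narrow rim of perivenous hepatocytes around the central vein. Slc38a4 encodes a sodium-coupled carrier that takes neutral amino acids into hepatocytes.

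The slide names in the labels take 4 forms, and each form is treated as a slide series with a letter from A to D. In series A there were 4 mthr-/- arrays and 1 wild type array, in series B 2 mthr-/- and 4 wild type arrays, in series C only wild type (2 arrays) and in series D only mthr-/- (1 array). The total background-subtracted signal of an array lay between 16029 and 82510 intensity units for mthr-/- and between 14443 and 56948 for wild type. Between 123 and 186 oligonucleotides exceeded the background limit on mthr-/- arrays, and between 70 and 155 on wild type arrays, with the 70 on wild type 6. Of the 11 hepatocyte markers, 6 were on the array and all 6 were above background on 14 of 14 arrays. Their summed intensity ran from 3879 to 27514 on mthr-/- arrays and from 1386 to 14659 on wild type arrays. Of 5 muscle markers, 4 were on the array, and their summed intensity ran from 0.30 to 960.8 on mthr-/- arrays, highest on mthr-/- 6, and from 3.2 to 444 on wild type arrays, highest on wild type 6. Their part in the results was not tested.

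Cps1 spanned a wide range of signal in both genotypes. Its background-subtracted intensity, before any scaling between arrays, had a lowest value of 6.25, a median of 102.8 and a highest value of 1029 on mthr-/- arrays, against -0.50, 33.5 and 205.2 on wild type arrays. Wild type 6 did not exceed its limit of 9.81 and was the only array of 14 on which Cps1 lay at background. After quantile normalization, which gives every array the same distribution of values, the log2 intensity of Cps1 was 7.46 ± 0.58 in mthr-/- livers and 7.24 ± 0.62 in wild type livers (SD, n = 7 each). The 2 highest animals were mthr-/- 3 at 8.69 and wild type 1 at 8.58, both on series A slides, and the other 12 lay between 6.75 and 7.63. The authors' value table leaves Cps1 blank for wild type 1, where the 4 spots read 380, 224, 98 and 119.

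Arg1 exceeded the limit on all 14 arrays. Its intensity had a lowest value of 10, a median of 348.2 and a highest value of 1196 on mthr-/- arrays, against 90.5, 275.7 and 700.2 on wild type arrays. The normalized log2 intensity was 8.35 ± 0.71 in mthr-/- livers and 8.51 ± 0.33 in wild type livers (SD, n = 7 each). The lowest mthr-/- animal was mthr-/- 1 at 6.84, while the other 6 lay between 8.28 and 8.88. On that array the first spot read 1292 and was blanked by the authors, and the 2 kept spots read 15 and 5. The authors' value table leaves Arg1 blank for mthr-/- 1. Wild type 1 also had discordant spots, at 649, 467, 18 and 132, with a coefficient of variation of 92.4%, against a median of 25.0% over the arrays.

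**Figure D1:**
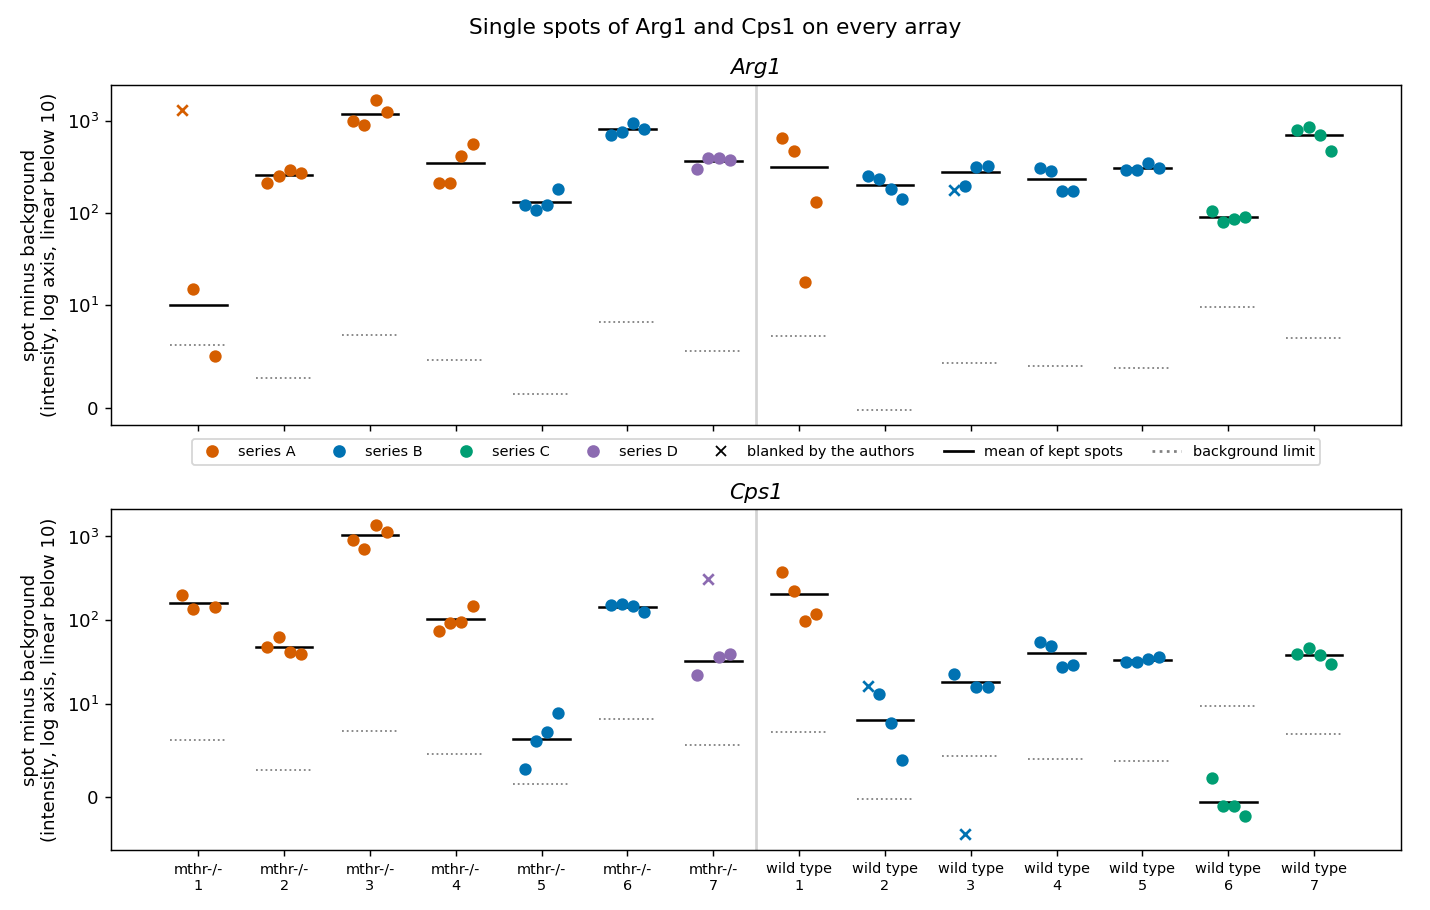
Background-subtracted intensity of the single spots of Arg1 (top) and Cps1 (bottom) on each of the 14 arrays, on an axis that is logarithmic above 10 and linear below it. Points are kept spots, coloured by slide series, crosses are spots blanked by the authors, black lines are means of kept spots and dotted lines the background limit of the array. The blanked Arg1 spot of mthr-/- 1 stands at 1292, above kept spots at 15 and 5, and Cps1 of wild type 6 lies under its limit.

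Gls2 had an SD of 0.20 over the 14 arrays on the log2 scale, against 0.59 for Cps1 and 0.53 for Arg1. Its intensity had a lowest value of 15.6, a median of 53.0 and a highest value of 276.2 on mthr-/- arrays, against 4.25, 46.2 and 74.0 on wild type arrays, and wild type 6 again lay under its limit. The normalized log2 intensity was 7.26 ± 0.21 in mthr-/- livers and 7.17 ± 0.19 in wild type livers (SD, n = 7 each). The lowest mthr-/- animal was mthr-/- 4 at 6.93, and the lowest wild type animal was wild type 6 at 6.83, so the groups overlapped over most of their range. The SDs depend on the offset of 50 in the background correction, which draws dim values together. With an offset of 0, Gls2 ran from 5.68 to 6.98, Cps1 from 5.43 to 8.47 and Arg1 from 5.70 to 8.70. The lowest of these Arg1 values was again mthr-/- 1.

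Glul, the perivenous gene, exceeded the limit on all 14 arrays. Its intensity had a lowest value of 131.0, a median of 304.8 and a highest value of 785.2 on mthr-/- arrays, against 92.2, 291.5 and 853.5 on wild type arrays. The normalized log2 intensity was 8.51 ± 0.60 in mthr-/- livers and 8.75 ± 0.45 in wild type livers (SD, n = 7 each). The animals highest in Cps1 were the lowest in Glul, mthr-/- 3 at 7.48 and wild type 1 at 7.79. Its spots agreed most closely, with a median coefficient of variation of 17.9%, against 23.4% to 27.6% for the other members. On wild type 1 they were discordant, at 161, 108, 57 and 43, with a coefficient of variation of 58.2%, the highest of Glul on any array.

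Slc38a4, the amino acid carrier, was near background on several arrays. Its intensity had a lowest value of 2.42, a median of 45 and a highest value of 274.8 on mthr-/- arrays, against 1.5, 7.75 and 51.5 on wild type arrays. It exceeded the limit on 12 of 14 arrays and lay under it on wild type 3 and wild type 6. On wild type 2 it read 2.4 against a limit that was itself negative, at -0.21, and on mthr-/- 5 it read 2.42 against 1.36. The normalized log2 intensity was 7.04 ± 0.19 in mthr-/- livers and 6.92 ± 0.20 in wild type livers (SD, n = 7 each). Again mthr-/- 3 at 7.40 and wild type 1 at 7.35 were the highest. The offset of 50 added in the background correction draws dim values together, and with an offset of 0 the genotype difference given below was 0.26 (SE 0.20) in place of 0.12.

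**Figure D2:**
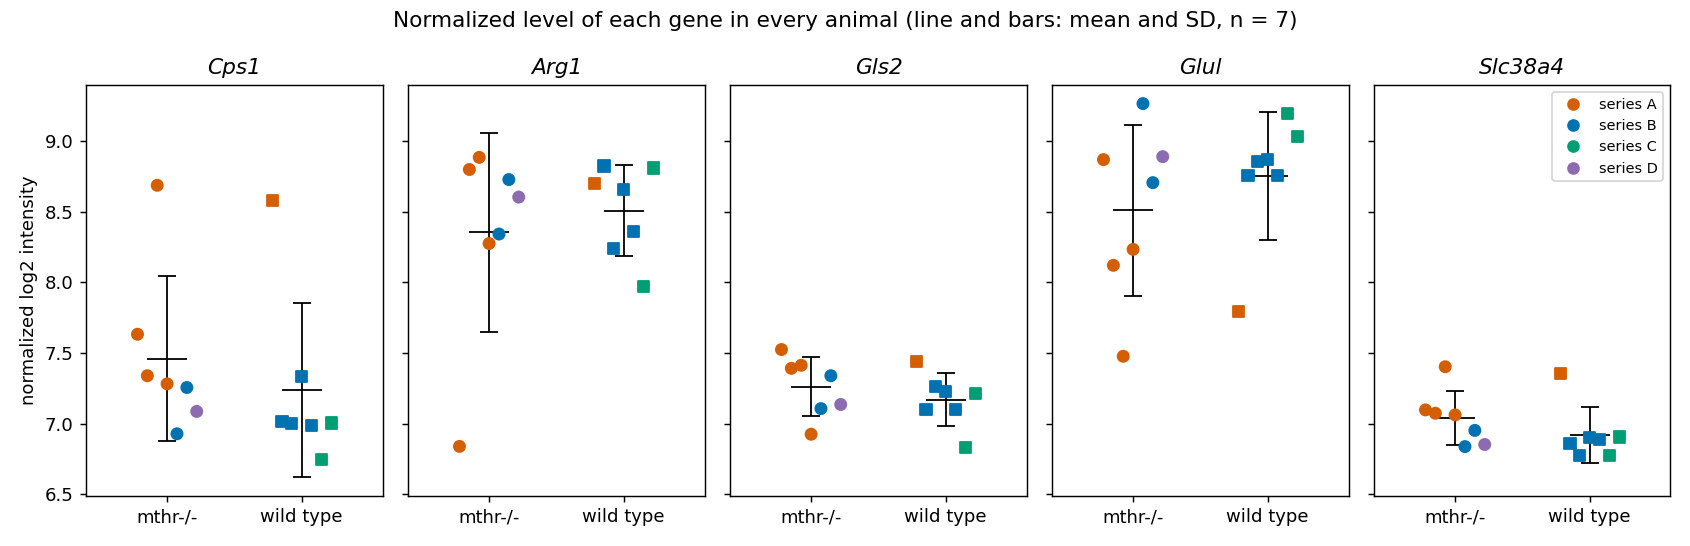
Normalized log2 intensity of the 5 genes in each animal, mthr-/- left (circles) and wild type right (squares), coloured by slide series, with the mean and SD of 7 animals in black. The 2 groups overlap for every gene, and the series A animals mthr-/- 3 and wild type 1 are the highest in Cps1 and Slc38a4 and the lowest in Glul.

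The genotype comparison asked whether these genes differed between mthr-/- livers and wild type livers. None of the 5 passed, and 0 of the 134 tested genes did (0%), by limma with Benjamini-Hochberg adjustment at 0.05. At an unadjusted p under 0.05 limma gave 10 of 134 genes (7.46%), of which 0 were members, and the smallest adjusted p of any gene was 0.578. Of the 5 members, 3 were on the higher side in mthr-/- livers, as were 66 of 134 genes (49.3%). The log2 difference, mthr-/- minus wild type, was 0.22 for Cps1 (SE 0.30, limma adjusted p = 0.799), 0.09 for Gls2 (SE 0.10, limma adjusted p = 0.711) and 0.12 for Slc38a4 (SE 0.10, limma adjusted p = 0.675). It was -0.16 for Arg1 (SE 0.28, limma adjusted p = 0.874) and -0.24 for Glul (SE 0.27, limma adjusted p = 0.711). Each difference was smaller than the SD among animals of either genotype, and the genotypes overlapped for all 5, as for all 134 genes. In bulk RNA, fewer cells of a type and less RNA per cell cannot be told apart.

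Single animals moved these values. Without wild type 1 the Cps1 difference was 0.44 (limma adjusted p = 0.320), and without mthr-/- 3 it was 0.02 (limma adjusted p = 0.997). Without mthr-/- 1 the Arg1 difference turned to 0.10 (limma adjusted p = 0.839). For Glul it was -0.40 without wild type 1 (limma adjusted p = 0.384) and -0.07 without mthr-/- 3 (limma adjusted p = 0.976). Without normalization between arrays, where the median of all genes shifted by 0.81 towards mthr-/-, Cps1 was 0.99 (SE 0.42) and Slc38a4 0.95 (SE 0.42), above that shift and each with a limma adjusted p of 0.105. Gls2 at 0.78, Arg1 at 0.41 and Glul at 0.15 lay above 0 but below it. With local background subtracted in place of normexp, Cps1 was 1.30 (SE 0.93, limma adjusted p = 0.605) and Slc38a4 1.37 (SE 0.78, limma adjusted p = 0.591). Over all alternatives the limma adjusted p ran from 0.105 to 0.997 for Cps1, from 0.386 to 0.996 for Arg1, from 0.112 to 0.979 for Gls2, from 0.384 to 0.976 for Glul and from 0.105 to 0.919 for Slc38a4.

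The authors' deposited table gives a ratio of the median over mthr-/- arrays to the median over wild type arrays for 103 oligonucleotides, of which 62.1% were above 1. In the authors' deposited table the ratio was 3.59 for Cps1, 3.01 for Slc38a4, 1.63 for Gls2, 1.02 for Arg1 and 0.645 for Glul. Its wild type medians equalled those of the 7 wild type arrays, blank values skipped, for 103 of 103 oligonucleotides, within 0.01 intensity units. The wild type medians of Cps1 and Gls2 thus rest on 6 values each. Cps1 is blank for wild type 1, the highest wild type animal after normalization, and Gls2 is blank for wild type 6. For mthr-/-, the deposited medians equalled those of 6 arrays, without mthr-/- 7, for 102 of 103 oligonucleotides. With all 7 arrays they matched for 1 of 103. Blank values were skipped here too, among them Arg1 of mthr-/- 1. In the authors' value table with all 7 arrays, Glul had a median of 215.0 on mthr-/- arrays and 280.1 on wild type arrays, and Slc38a4 of 23.4 and 8.03. Fitted on log2(value + 1) of that table with limma, the genotype difference was 1.73 for Cps1 (SE 0.80, adjusted p = 0.359, wild type 1 missing) and 1.29 for Slc38a4 (SE 0.67, adjusted p = 0.360). Those sizes are on a scale without the offset of 50, and neither passed.

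Slc38a4 was the only member that passed between slide series A and series B. Series A minus series B, with genotype in the model, passed in limma for 7 of 134 genes (5.22%), 6 higher in A (4.48%) and 1 lower (0.746%), and 29 genes had an unadjusted p under 0.05 (21.6%), among them Cps1, Glul and Slc38a4. Of the members 3 were on the higher side in series A, as were 56 of 134 genes (41.8%). Slc38a4 had a difference of 0.35 (SE 0.08, limma adjusted p = 0.0389). Its log2 values were 7.06 to 7.40 on the 5 series A arrays and 6.78 to 6.95 on the 6 series B arrays and did not overlap, which held for 13 of 134 genes (9.70%). Before normalization its series B intensities ran from 1.75 on wild type 3 to 56 on mthr-/- 6, so some lay near background. Glul had a difference of -0.89 that missed the threshold (SE 0.23, limma adjusted p = 0.0525), with 8.10 ± 0.52 on series A (SD, n = 5) and 8.87 ± 0.20 on series B (SD, n = 6). Cps1 had a difference of 0.96 that also missed it (SE 0.29, limma adjusted p = 0.0719), with 7.90 ± 0.68 on series A and 7.09 ± 0.17 on series B. Gls2 at 0.16 (SE 0.13, limma adjusted p = 0.438) and Arg1 at -0.14 (SE 0.40, limma adjusted p = 0.826) lay further from it. Whether a series difference was larger than a genotype difference was not tested, and the order of their sizes depended on the scaling. Without normalization the genotype difference of 0.99 in Cps1 and 0.95 in Slc38a4 stood beside series differences of 0.84 and 0.35, and with reference gene centring Slc38a4 had 0.61 beside 0.37.

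The Slc38a4 call lay near the threshold. It was lost without any 1 of wild type 2, 3, 4 or 5, where the difference stayed between 0.34 and 0.35 with a limma adjusted p between 0.0563 and 0.0685. It was also lost without mthr-/- 5 at 0.35 (limma adjusted p = 0.161), and without wild type 1, where the difference was 0.26 (limma adjusted p = 0.321). The call was lost too with every other normalization between arrays that was run, with plain background subtraction, with sex as a covariate and in the authors' value table. The Glul difference passed without mthr-/- 1 (-1.03, limma adjusted p = 0.0176), without mthr-/- 3 (-0.75, limma adjusted p = 0.0371) and without mthr-/- 6 (-1.05, limma adjusted p = 0.0443). Over all alternatives the limma adjusted p ran from 0.0321 to 0.998 for Slc38a4, from 0.0078 to 0.998 for Glul and from 0.0554 to 0.998 for Cps1.

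Because 4 of the 5 series A arrays were mthr-/-, the genotype difference was also taken with slide series as a block, which uses series A and B alone. Again 0 of 134 genes passed in limma (0%), with 1 at an unadjusted p under 0.05 (0.746%), and 65 of 134 were on the higher side in mthr-/- livers (48.5%). The sign turned for 4 of 5 members. Cps1 was -0.31 (SE 0.29), Gls2 -0.02 (SE 0.13), Slc38a4 -0.05 (SE 0.08) and Glul 0.25 (SE 0.23), each with a limma adjusted p of 0.878 except Gls2 at 0.977. Arg1 kept its sign at -0.18 (SE 0.40, limma adjusted p = 0.878). Within series A alone, mthr-/- minus the single wild type array was -0.85 for Cps1, -0.50 for Arg1, -0.13 for Gls2, 0.38 for Glul and -0.19 for Slc38a4. Within series B, with 2 mthr-/- and 4 wild type arrays, it was 0.01 for Cps1, 0.01 for Arg1, 0.05 for Gls2, 0.18 for Glul and 0.04 for Slc38a4.

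**Figure D3:**
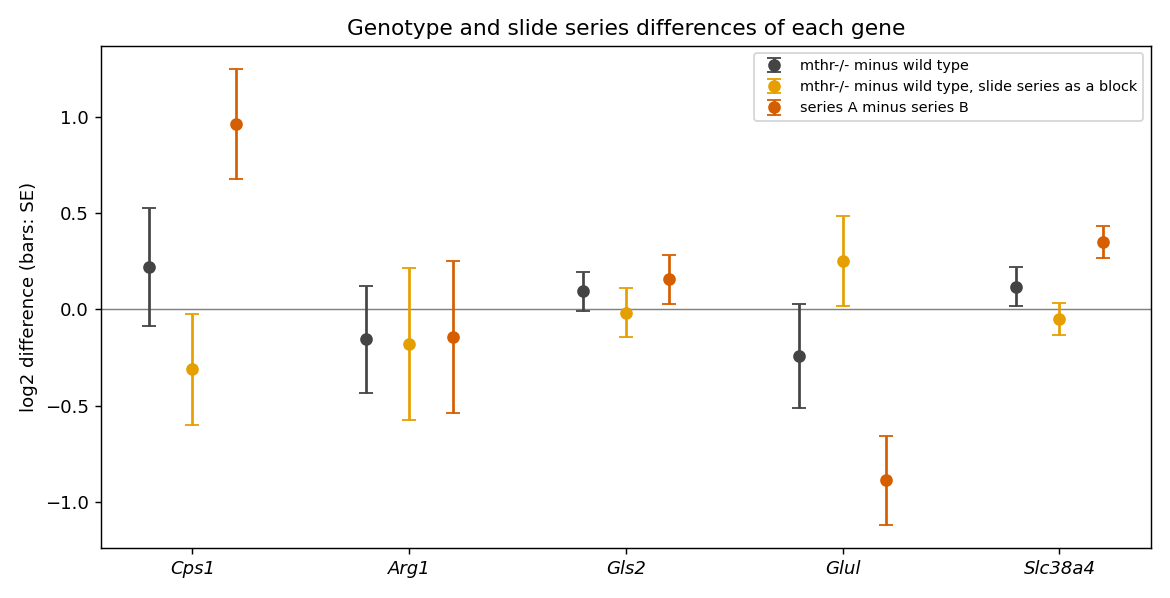
Log2 differences of the 5 genes with their SE as bars, for mthr-/- minus wild type (grey), the same with slide series as a block (yellow) and series A minus series B (red). Cps1 is at 0.22, -0.31 and 0.96 and Glul at -0.24, 0.25 and -0.89, so on this scaling the series difference of these 2 genes is the largest of the 3 in size, and the genotype difference changes sign with the block.

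Slide series took up 72.7% of the variation of Slc38a4 over the 14 arrays, 63.5% of that of Glul, 55% of that of Cps1, 31.5% of that of Gls2 and 4.66% of that of Arg1, against a median of 36.0% over the tested genes. Genotype, with 2 levels against 4, took up 2.28% to 9.53% in the 5 genes, against a median of 7.57%. Females and males did not differ past the threshold in any tested gene by limma (0 of 134, 0%, with 3 at an unadjusted p under 0.05, 2.24%). The largest member value was -0.35 for Arg1, females minus males (SE 0.29, limma adjusted p = 1.00). The females include mthr-/- 1, whose Arg1 value of 6.84 rests on 2 kept spots at 15 and 5, and the sex difference was not computed without it. The genotype difference did not differ with sex for any of 134 genes in limma (0%, with 2 unadjusted, 1.49%), and differed between series A and B for 1 gene (0.746%), which was not a member.

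The periportal genes were set against Glul within each animal as the mean log2 value of Cps1, Arg1 and Gls2 minus that of Glul. Since the oligonucleotides differ, only how this value varies between animals can be read, and no test was made of it. It was -0.82 ± 0.89 in mthr-/- livers and -1.11 ± 0.75 in wild type livers (SD, n = 7 each), a difference of 0.30 (SE 0.44). The highest were mthr-/- 3 at 0.85 and wild type 1 at 0.45, and the lowest was wild type 6 at -2.01. On series A it was -0.25 ± 0.95 (SD, n = 5) and on series B -1.27 ± 0.30 (SD, n = 6), with overlapping values. The overlap came from mthr-/- 1 at -1.54, whose Arg1 value rests on 2 kept spots at 15 and 5. The next lowest series A animal, mthr-/- 4 at -0.74, lay above the highest of series B at -0.93. With slide series as a block the genotype difference was -0.42, and without mthr-/- 3 it was 0.02. Of the 3 parts, Cps1 minus Glul differed most between the series, with -0.19 ± 1.11 on series A and -1.78 ± 0.31 on series B. Gls2 minus Glul was -0.76 ± 0.57 on series A and -1.68 ± 0.26 on series B. Arg1 minus Glul was 0.20 ± 1.34 and -0.34 ± 0.38, with mthr-/- 1 of series A at -2.03.

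**Figure D4:**
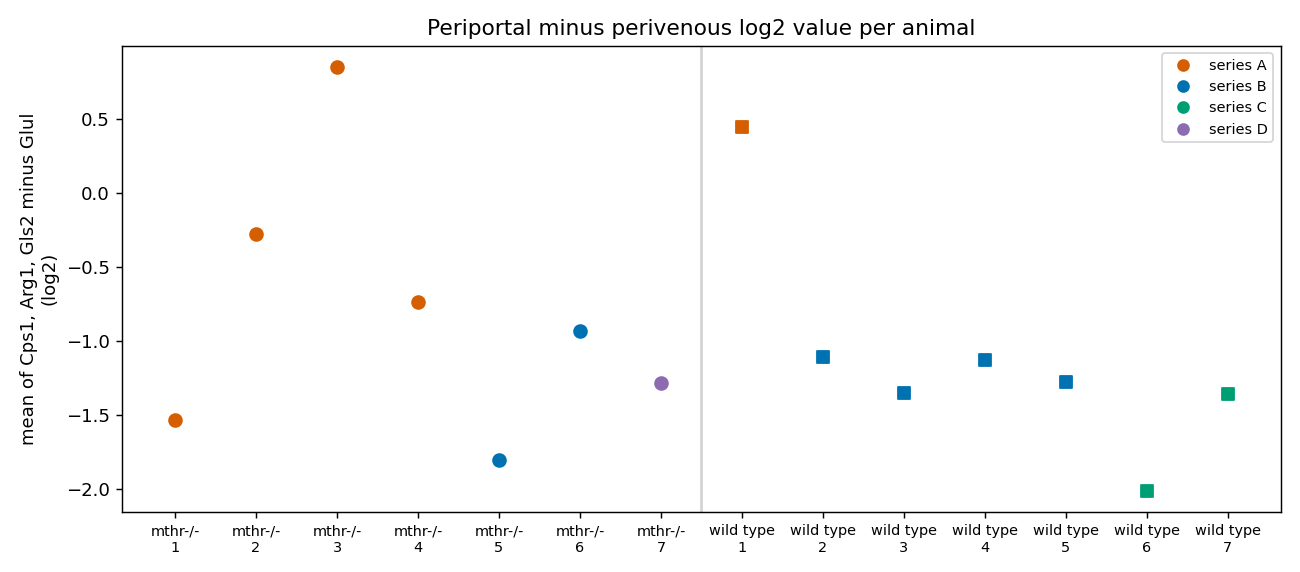
Mean log2 value of Cps1, Arg1 and Gls2 minus that of Glul in each animal, mthr-/- left (circles) and wild type right (squares), coloured by slide series. The series A animals mthr-/- 3 at 0.85 and wild type 1 at 0.45 are the highest, and the 4 wild type animals of series B lie between -1.35 and -1.11. The lowest series A animal, mthr-/- 1 at -1.54, includes an Arg1 value from 2 kept spots.

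Across the 14 animals, the 10 pairs of members were correlated, with permutation p-values from 100000 resamples, adjusted over the 10 pairs by Benjamini-Hochberg, two-sided. Cps1 and Slc38a4 varied together with r = 0.96 (permutation p = 3e-05, adjusted 0.00030) and rho = 0.90 (permutation p = 4e-05, adjusted 0.00040). Without mthr-/- 3 and wild type 1, the animals farthest from the median of Cps1, r was 0.86 (permutation p = 0.00020). With the mean of each slide series removed it was 0.95 (adjusted permutation p = 0.0085, shuffled within series). In series B alone it was 0.68 (n = 6, exact permutation p = 0.151). No correlation was computed within series A, which held 5 arrays.

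Cps1 and Glul varied in opposite directions, with r = -0.86 (permutation p = 0.00034, adjusted 0.0011) and rho = -0.72 (permutation p = 0.0047, adjusted 0.0117). This relation was weaker without mthr-/- 3 and wild type 1, where r kept its sign at -0.52 (permutation p = 0.0818). It did not pass with slide series means removed (r = -0.67, adjusted permutation p = 0.330), and in series B it was -0.41 (n = 6, exact permutation p = 0.450). Without normalization between arrays r was 0.22, so its sign depended on the scaling. Glul and Slc38a4 had r = -0.90 (permutation p = 8e-05, adjusted 0.00040) and rho = -0.74 (permutation p = 0.0032, adjusted 0.0106). Without mthr-/- 3 and wild type 1 r was -0.70 (permutation p = 0.0113), with series means removed -0.73 (adjusted permutation p = 0.109), in series B -0.42 (n = 6, exact permutation p = 0.401) and without normalization 0.36.

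**Figure D5:**
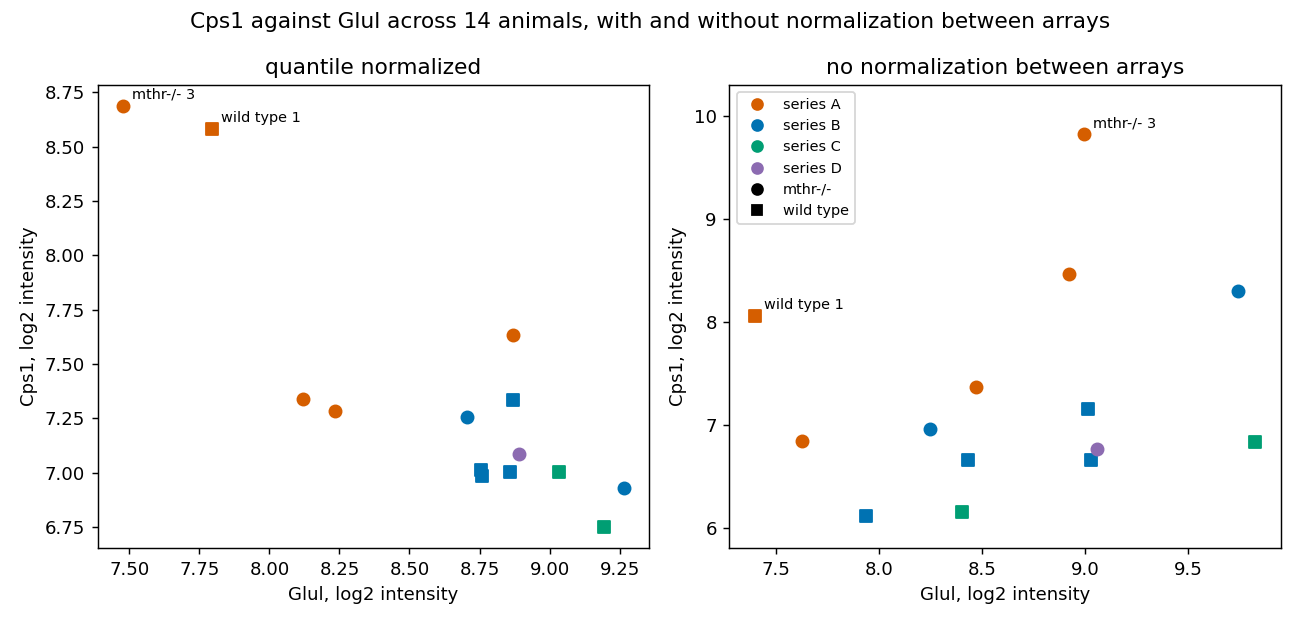
Log2 intensity of Cps1 against that of Glul in 14 animals, quantile normalized (left) and without normalization between arrays (right), mthr-/- as circles and wild type as squares, coloured by slide series. The correlation is -0.86 on the left, where mthr-/- 3 and wild type 1 lie apart, and 0.22 on the right.

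Cps1 and Gls2, both periportal, had r = 0.66 (permutation p = 0.0087, adjusted 0.0217) and rho = 0.76 (permutation p = 0.0019, adjusted 0.0095). Without mthr-/- 3 and wild type 1 r was 0.72 (permutation p = 0.0090), with series means removed 0.49 (adjusted permutation p = 0.354) and in series B 0.68 (n = 6, exact permutation p = 0.183). Gls2 and Slc38a4 had r = 0.62 (permutation p = 0.0185, adjusted 0.0371) and rho = 0.69 (permutation p = 0.0084, adjusted 0.0168), and in series B r was 0.27 (n = 6, exact permutation p = 0.603). Without mthr-/- 1 and wild type 6 r was 0.57 (permutation p = 0.0585). The third periportal gene, Arg1, did not vary with either of the others past the threshold, with r = 0.14 to Cps1 (permutation p = 0.590, adjusted 0.737) and -0.05 to Gls2 (permutation p = 0.873, adjusted 0.873). Without mthr-/- 1, Arg1 and Gls2 had r = 0.74 (adjusted permutation p = 0.0097). Arg1 and Glul had r = -0.36 (permutation p = 0.202, adjusted 0.288), and -0.83 with series means removed (adjusted permutation p = 0.0169). In series B r was -0.48 (n = 6, exact permutation p = 0.344). The value of -0.83 includes mthr-/- 1, at 6.84 in Arg1 against a series A mean of 8.30. Its Glul was 8.87 against 8.10, and its Arg1 rests on 2 kept spots at 15 and 5. The correlation with series means removed was not computed without mthr-/- 1. For Gls2 and Glul r was -0.46 (permutation p = 0.0949, adjusted 0.158). For Arg1 and Slc38a4 it was 0.12 (permutation p = 0.672, adjusted 0.747).

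Among the tested genes outside the 5, those most like each member over the 14 arrays were named by Pearson's r of normalized log2 values. For Cps1 they were Cat at 0.90, Bhmt at 0.90 and Adk at 0.87, and for Slc38a4 Bhmt at 0.94, Adk at 0.91 and Sardh at 0.90. For Gls2 they were Mat1a at 0.83, Cat at 0.77 and Pemt at 0.76. For Arg1 they were Apoh at 0.88, Nfkb1 at 0.86 and Fabp1 at 0.82, and for Glul Rpl30 at 0.88, Ndufs3 at 0.86 and Sod2 at 0.81. These values share arrays, slide series and scaling, and are given as a description. Those of Arg1 include mthr-/- 1 at 6.84, which rests on 2 kept spots at 15 and 5, and were not computed without it. Nfkb1 had an SD of 0.19 among mthr-/- animals and 0.02 among wild type animals.

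Of 36 other genes of nitrogen and glutamine handling, 4 were on the array, the amino acid carriers Slc38a1, Slc38a2 and Slc38a3 and Odc1, the enzyme that turns ornithine into putrescine. Only Slc38a3, a glutamine carrier, was bright enough to test. Its genotype difference was 0.08 (SE 0.20, limma adjusted p = 0.890) and its series difference -0.12 (SE 0.27, limma adjusted p = 0.799). Of 9 other periportal genes, 3 were on the array and 0 passed for genotype in limma, against 0% of all genes. Alb, the plasma protein albumin, was at 0.34 (SE 0.32), Apoc2, an activator of lipoprotein lipase, at -0.19 (SE 0.27), and G6pc, the enzyme that releases glucose, at -0.25 (SE 0.18). Their median was -0.19, against 0.00 over all tested genes. Of 11 other genes listed as perivenous 1 was on the array, Bcl2l1, an inhibitor of apoptosis, at -0.01 (SE 0.03). Its place in the lobule was not tested and cannot be read from bulk liver RNA. Bcl2l1 was near background, with a median intensity of 9 on mthr-/- arrays and 5 on wild type arrays. The offset of 50 draws such values together, so its small SE is no measure of a precise estimate.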

How the data were processed

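Liver RNA of 14 mice was hybridised to 14 one-colour arrays, 7 mthr-/- and 7 wild type, each numbered in the labels as 1 animal. Labelled cDNA was made from oligo-dT primers with 1 dye, per the labels' protocols. The deposited array files give, per the file headers, spot and local background intensity on a linear scale, with 4 spots for each oligonucleotide, beside columns that the authors scaled. Cells left blank in those columns were taken as blanked by the authors. The deposited value table holds intensity values that equalled the mean of the authors' scaled spots within 1 unit on 12 arrays, so it is linear and its genes are not centred. For mthr-/- 7 this held for 21 of 103 values and for wild type 5 for 13 of 102, and how those were made is unknown. Its medians run from 38.4 to 69.4 on mthr-/- arrays and from 32.8 to 50.0 on wild type arrays, over 96 to 103 oligonucleotides. The authors' own comparison holds, per the file headers, a median intensity per genotype and the log10 ratio of the 2 medians, mthr-/- on top. The sources used here name no scanner or image software.

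Spots were corrected with normexp, offset 50, in limma 3.58.1 (R 4.3.3). Blanked spots and the spots of 4 plant controls were left out, arrays were quantile normalized, and spots were averaged on the log2 scale. On mthr-/- 1 the third block repeats the second and was counted once. Of 284 mouse oligonucleotides for 271 genes, 139 for 134 genes exceeded the mean plus 2 SD of the 16 plant control spots on at least 7 arrays, and the brightest stood for its gene. Oligonucleotides were named by accession or symbol through RefSeq gene tables, or by the files' own names. Genotype, slide series (A minus B, with all 4 series and genotype in the model) and sex were tested with limma across all 134 genes, with Benjamini-Hochberg adjustment at 0.05. Correlations used 100000 permutations in Python 3.11.15 with numpy 2.4.6, or all permutations with 6 arrays. The limma steps were tested on simulated spots with planted 4-fold changes, of which nearly all were recovered. The genotype simulation held no slide series differences, so it does not show recovery where slide series and genotype are confounded. Changes as small as the genotype differences of the members were not planted, so the power to find them was not tested. Some unchanged oligonucleotides were called too, so the 7 genes called for slide series, Slc38a4 among them, may include unchanged ones. Depth is not defined for arrays, and their number limits the precision. Animal numbers are shared by the genotypes, but same-numbered animals did not deviate together (r from -0.23 to 0.35, 4 of 7 over 0.1), so they were not taken as pairs. The 5 members, the other gene lists and the rule of naming the 3 most similar genes were chosen with earlier results of these data known. No sequence is printed, since the array files pair none with the oligonucleotides.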

Additional observations from a re-analysis of the deposited data

Results flagged for a closer look

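For each of the 5 genes and for the periportal minus perivenous value, the highest and the lowest of the 7 animals of a genotype were checked for a gap to the next animal that is large against the whole range of the group. Of 12 such sets, 6 held an animal that stood apart, and for a single set chance gives about 1 in 20. The 12 sets are not independent, since the genes vary together and wild type 1 recurs in them. The 6 can therefore not be weighed against that rate. Cps1 stood apart in mthr-/- 3, at 8.69 with the next mthr-/- animal at 7.63, and in wild type 1, at 8.58 with the next wild type animal at 7.34. Arg1 stood apart in mthr-/- 1, at 6.84 with the next at 8.28. Wild type 1 also stood apart in Glul, at 7.79 with the next at 8.75, in Slc38a4, at 7.35 with the next at 6.91, and in the periportal minus perivenous value, at 0.45 with the next at -1.11. The last of these is computed from the genes themselves and is no separate evidence. Wild type 1 was the only wild type array of slide series A, so the animal and the slide series cannot be told apart in that genotype. On wild type 1 the coefficient of variation of the spots was 62.8% for Cps1 and 58.2% for Glul, against 20.1% for Slc38a4. The authors' value table leaves Cps1 of wild type 1 and Arg1 of mthr-/- 1 blank.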

How the results depend on the processing

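The genotype difference of the members passed under none of the alternatives run, and the count of genes past the threshold was 0 except without normalization between arrays, where it was 1. Sizes moved more than 1.5 times. Cps1 was 0.41 with an offset of 0, 1.30 with local background subtracted, 0.99 without normalization, 0.64 with reference gene centring and 1.73 in the authors' value table, and Slc38a4 was 0.26, 1.37, 0.95, 0.61 and 1.29 in the same order. The sign was not stable either. Arg1 was 0.41 and Glul 0.15 without normalization, where all genes shifted by 0.81, and Arg1 was 0.059 with reference gene centring, where they shifted by 0.46. Gls2 was -0.081 with median centring, -0.060 with cyclic loess and -0.030 without wild type 6, mthr-/- 1 and mthr-/- 6. With slide series as a block Cps1 was -0.31, Gls2 -0.017, Glul 0.25 and Slc38a4 -0.049, and with an offset of 0 as well they were -0.41, -0.043, 0.31 and -0.069. Leaving out 1 animal moved Arg1 between -0.25 and 0.10. With the animal number as a replicate block the differences were 0.22 for Cps1, -0.16 for Arg1, 0.09 for Gls2, -0.24 for Glul and 0.12 for Slc38a4. These sizes are unchanged by design, since every number has 1 animal in each genotype, and only the SE could move. With this block 0 genes passed, and 0 of 14 arrays correlated best with their own number.

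The slide series difference was called in 7 genes. The count was 4 with local background subtracted, 0 without normalization and with median centring, 1 with cyclic loess and with reference gene centring, 3 with sex as a covariate, 16 without wild type 6, mthr-/- 1 and mthr-/- 6, and 1 to 13 without 1 animal. The call of Slc38a4 was lost with local background subtracted (2.38), without normalization (0.35), with median centring (0.32), cyclic loess (0.26), reference gene centring (0.37), the authors' value table (2.29) and sex as a covariate (0.34). Glul passed with cyclic loess (-0.81), blanked spots kept (-0.95), a limit of the median plus 3 MAD (-0.89), the authors' value table (-1.41), without the 3 arrays (-1.16) and with blanked spots left out after normalization (-0.95). Arg1 turned to 0.076 without normalization, 0.048 with median centring, 0.016 with cyclic loess, 0.093 with reference gene centring, 0.010 with blanked spots kept, 0.19 in the value table and 0.24 without the 3 arrays. Without 1 animal Arg1 lay between -0.34 and 0.14, Glul between -1.05 and -0.75 and Slc38a4 between 0.26 and 0.41. The causes were not tested.

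Correlations between members moved with the scaling and with the slide series used. Without normalization r was 0.62 for Cps1 and Arg1, 0.22 for Cps1 and Glul, 0.68 for Arg1 and Gls2, 0.65 for Arg1 and Glul, 0.59 for Arg1 and Slc38a4, 0.47 for Gls2 and Glul and 0.36 for Glul and Slc38a4. With median centring it was 0.40 for Cps1 and Gls2, -0.33 for Cps1 and Glul, 0.78 for Arg1 and Gls2, 0.72 for Arg1 and Glul, 0.43 for Gls2 and Glul, 0.37 for Gls2 and Slc38a4 and -0.088 for Glul and Slc38a4. With reference gene centring it was -0.12 for Arg1 and Slc38a4 and -0.57 for Gls2 and Glul. With slide series means removed it was 0.49 for Cps1 and Gls2, -0.67 for Cps1 and Glul, 0.026 for Arg1 and Gls2, -0.83 for Arg1 and Glul (with mthr-/- 1, whose Arg1 rests on 2 kept spots), 0.44 for Gls2 and Slc38a4 and -0.73 for Glul and Slc38a4. In series B alone it was 0.68 for Cps1 and Gls2, -0.41 for Cps1 and Glul, 0.68 for Cps1 and Slc38a4, 0.15 for Arg1 and Gls2, 0.66 for Arg1 and Slc38a4, 0.57 for Cps1 and Arg1, 0.27 for Gls2 and Slc38a4 and -0.42 for Glul and Slc38a4. Without 1 animal r ran from -0.030 to 0.51 for Cps1 and Arg1, 0.61 to 0.71 for Cps1 and Gls2, -0.23 to 0.74 for Arg1 and Gls2, -0.045 to 0.52 for Arg1 and Slc38a4, -0.63 to -0.37 for Gls2 and Glul and 0.55 to 0.74 for Gls2 and Slc38a4. No correlation was computed in series A alone, which held 5 arrays. The positive r of Cps1 and Slc38a4 passed under every alternative but series B alone. Leaving blanked spots out after normalization, series A and B alone, sex in the series fit and the offset of 0 with the block were chosen after seeing the data.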
